A study of Mus musculus with 6 samples.

Results

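The Hox genes were followed in RNA from primary mouse skin endothelial cells kept in normal or high glucose. Members were all genes whose mouse symbol consists of Hoxa, Hoxb, Hoxc or Hoxd and a number, which gave 39 of the 55487 gene identifiers in the deposited count table. Of these, 11 belong to the Hoxa cluster on chromosome 6, 10 to Hoxb on chromosome 11, 9 to Hoxc on chromosome 15 and 9 to Hoxd on chromosome 2. The cells came from the skin of 4 to 6 C57BL/6 mice aged 2 to 3 months, were enriched with anti-CD31 MicroBeads and were cultured. One group of 3 samples was treated with 5 mmol/L glucose (normal glucose) for 48 hours, and the other group of 3 with 20 mmol/L glucose (high glucose) for the same time. All 6 samples share strain, tissue and enrichment. The study's text counts mice in each group, but nothing in the labels ties a sample to an animal or a culture of its own, so p-values here measure only the spread between these samples, which may be technical.

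Hox genes encode homeodomain transcription factors that give cells along the body axis and the limbs their positional identity. Genes of one number, the paralogue group, descend from one ancestral gene. Low-numbered genes lie at the 3′ end of a cluster and are used early and towards the head, and high-numbered genes lie at the 5′ end and are used late, towards the tail and in distal limbs. Adult dermal fibroblasts and vascular cells keep part of the Hox pattern of the place they came from, and several Hox genes have been tied to blood vessel growth in wounded skin. HOXA3 and HOXD3 are known to promote endothelial migration and repair, while HOXA5 and HOXD10 are known to hold endothelial cells in a resting state.

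The data were read counts per gene, with totals between 120192466 and 146881356 counts per sample. A count of 3, taken as the limit that an observed 0 allows, corresponded to 0.0204 to 0.0250 CPM (counts scaled to a common library total) in these samples. This limit covers counting error only. Hox genes together held between 35729 and 43797 counts per sample, or 0.0293% to 0.0360% of all counts. Several defining markers of the labelled cell type were low or absent. Pecam1, which encodes the CD31 protein used for the enrichment, counted 19, 12 and 19 reads under normal and 9, 13 and 18 under high glucose, and Sox17 had 0 in every sample. The 20 endothelial markers together reached 221 to 249 normalized CPM under normal and 202 to 207 under high glucose. Most of this sum came from Eng, a TGF-beta co-receptor that other stromal cells also express, at 155 ± 12.3 and 140 ± 3.48 normalized CPM, and Flt1, a VEGF receptor, at 55.3 ± 2.06 and 38.4 ± 0.153 (SD, n = 3). The 16 fibroblast markers, led by collagen genes, together reached 42431 to 45751 normalized CPM under normal and 74442 to 79353 under high glucose. In bulk RNA, fewer cells of a type and less RNA per cell cannot be told apart. The Hox values below therefore belong to the cultures as a whole.

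Which Hox genes the cultures expressed was asked first, with levels given as RPKM, that is, normalized CPM divided by the length of the gene's exons in kilobases. At 1 RPKM or more in at least one group, 19 of the 39 members were expressed: 4 in Hoxa, 6 in Hoxb, 6 in Hoxc and 3 in Hoxd. With the longest annotated transcript as the length, the number was 20. The central and posterior Hoxc genes dominated. Hoxc6, Hoxc8, Hoxd8 and Hoxc10 averaged 24.9, 20.1, 15.5 and 13.6 RPKM over the 6 samples, and the next member, Hoxc9, averaged 6.70 RPKM. With the longest transcript in place of the union of exons as length, Hoxc6 averaged 38.0 RPKM and these same 5 genes kept the first 5 ranks. By the union of exons, Hoxc6 and Hoxc8 overlapped in range. On that length, each of Hoxc8, Hoxc10 and Hoxc9 was above its successor within the cluster in every sample. The orders below also use that length. On the anterior side of Hoxc6, Hoxc4 averaged 4.30 RPKM and Hoxc5 2.14 RPKM, and on the posterior side the level dropped from Hoxc10 to Hoxc11, which averaged 0.511 RPKM. Hoxc13, which directs hair and nail keratin genes, averaged 0.131 RPKM and did not separate from Hoxc12 at 0.0413 RPKM.

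**Figure D1:**
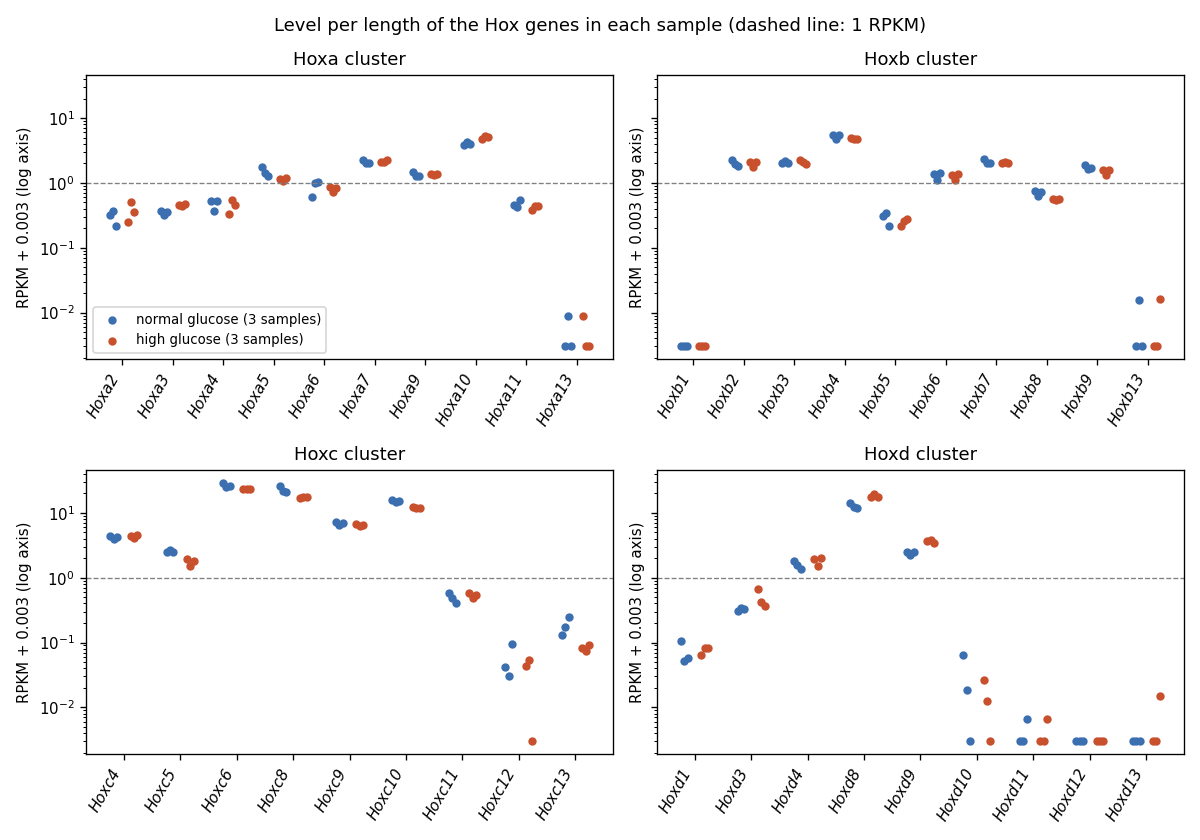
Levels of 38 of the 39 Hox genes in each sample, in RPKM with 0.003 added, on a log axis, in the order of the paralogue groups along each cluster. Blue points are the 3 normal glucose samples and red points the 3 high glucose samples, and points at the bottom are samples with 0 counts. Levels drop between Hoxd9 and Hoxd10, Hoxa11 and Hoxa13, Hoxb9 and Hoxb13, and between Hoxc10 and Hoxc11.

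Hoxa was led by Hoxa10, which sets lumbar identity and acts in the uterus, with a mean of 4.53 RPKM. Hoxa7, a thoracic gene, had 2.22, 2.05 and 2.02 RPKM in normal glucose and 2.11, 2.07 and 2.26 RPKM in high glucose. Hoxa9, which acts in blood progenitors and endothelial cells, had 1.48, 1.29 and 1.26 RPKM in normal glucose and 1.38, 1.33 and 1.35 RPKM in high glucose. The groups overlapped for both genes, and Hoxa9 did not separate from Hoxa5 (1.31 RPKM) in the order of levels. That order depends on the length used, since the longest Hoxa9 transcript has 3226 bases against 5580 in the union of exons. Hoxa6, Hoxa4, Hoxa11, Hoxa3 and Hoxa2 lay between 0.844 and 0.334 RPKM. The place of Hoxa3 depends on the length too, with 2591 bases in its longest transcript against 6014 in the union. Hoxa13, a gene of the distal limb and hindgut, had at most 2 counts in any sample.

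Hoxb was led by Hoxb4, a cervical gene also used in blood stem cells, which had 5.54, 4.81 and 5.44 RPKM in normal glucose and 4.85, 4.72 and 4.80 RPKM in high glucose. The values of the groups overlapped. Hoxb7 had 2.32, 2.02 and 2.05 RPKM in normal glucose and 2.02, 2.11 and 2.00 RPKM in high glucose, and Hoxb3 had 2.00, 2.18 and 2.01 against 2.22, 2.11 and 1.98 RPKM. By the union of exons, Hoxb7, Hoxb3, Hoxb2 and Hoxb9 formed a plateau from 2.09 down to 1.61 RPKM. In it no neighbour separated from the next in all samples. This order too depends on the length used, since the longest Hoxb3 transcript has 3190 bases against 4251 in the union. Hoxb6 averaged 1.27 RPKM, Hoxb8 0.628 RPKM and Hoxb5 0.269 RPKM, so that Hoxb5 stood far below the genes on both sides of it. Hoxb1, a hindbrain gene, had 0 counts in all 6 samples, and Hoxb13, a tail and prostate gene, had at most 4.

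Hoxd had an abrupt edge between neighbouring genes. Hoxd8 averaged 15.5 RPKM, Hoxd9 3.03 RPKM and Hoxd10 0.0183 RPKM. Hoxd10, next to Hoxd9 on the chromosome and itself a gene of the hindlimb motor neurons and resting endothelium, counted 14, 4 and 0 reads under normal and 6, 2 and 0 under high glucose, too few to be tested. Further towards the 5′ end, Hoxd11 and Hoxd13 had at most 2 and 4 counts in a sample, and Hoxd12 had 0 in all 6. On the 3′ side, Hoxd4 had 1.82, 1.56 and 1.35 RPKM in normal glucose and 1.91, 1.49 and 1.98 RPKM in high glucose, with overlapping groups. Hoxd3 averaged 0.400 RPKM and Hoxd1 0.0709 RPKM. In all clusters together, 8 members had too few counts to be tested: Hoxa13, Hoxb1, Hoxb13, Hoxc12 and Hoxd10 to Hoxd13. Except for Hoxb1 these lie at the 5′ ends, in paralogue groups 10 to 13. The genes from Hoxd10 to Hoxd13 are those used in distal limbs and the genitals.

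The start regions of the genes on either side of this edge are shown because Hoxd8 and Hoxd9 had the largest rises among the called members and Hoxd10 was close to 0. Each holds 300 bases, from 250 before to 50 after a transcript start, from RefSeq on GRCm38.p6, plus strand, 5′ to 3′. Capitals mark CpG dinucleotides, the sites of DNA methylation, which was not measured here. The Hoxd8 window is chr2:74704365-74704664, the Hoxd9 window chr2:74697513-74697812 and the Hoxd10 window chr2:74691641-74691940.
Hoxd8: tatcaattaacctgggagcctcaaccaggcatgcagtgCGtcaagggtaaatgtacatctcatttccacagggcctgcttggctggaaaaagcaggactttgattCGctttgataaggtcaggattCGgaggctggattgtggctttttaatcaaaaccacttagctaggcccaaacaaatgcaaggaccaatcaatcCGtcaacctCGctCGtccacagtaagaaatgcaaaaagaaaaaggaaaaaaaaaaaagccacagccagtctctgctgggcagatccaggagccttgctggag
Hoxd9: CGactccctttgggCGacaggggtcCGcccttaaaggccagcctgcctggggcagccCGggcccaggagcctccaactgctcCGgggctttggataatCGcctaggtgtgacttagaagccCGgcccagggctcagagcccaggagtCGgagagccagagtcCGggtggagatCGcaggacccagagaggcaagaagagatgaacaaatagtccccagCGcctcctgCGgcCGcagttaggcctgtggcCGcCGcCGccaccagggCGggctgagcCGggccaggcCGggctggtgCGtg
Hoxd10: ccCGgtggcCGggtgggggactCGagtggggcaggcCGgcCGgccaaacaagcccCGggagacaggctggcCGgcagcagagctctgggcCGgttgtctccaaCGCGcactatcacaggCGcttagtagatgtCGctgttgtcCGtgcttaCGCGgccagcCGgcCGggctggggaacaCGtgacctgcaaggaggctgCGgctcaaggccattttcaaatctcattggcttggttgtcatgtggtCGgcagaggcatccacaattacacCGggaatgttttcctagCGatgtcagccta
These windows hold 6, 20 and 22 CpG dinucleotides, against a median of 7 over 32851 mouse windows of the same length, and their GC content is 46.7%, 68.3% and 62.7%. The Hoxd9 and Hoxd10 windows are close in CpG count, and the Hoxd8 window has the fewest. These 3 windows were picked by the levels and changes of their genes. Whether the starts shown were the ones in use, and any link of CpG count to level, was not tested. Searched on both strands, the TATA motif TATAAA is in none of the 3, against 13.6% of all windows. CCAAT is in the Hoxd8 and Hoxd10 windows, against 37.4% of all windows. The joint PBX and HOX motif TGATTNAT is in none of the 3 windows, against 3.22% of all windows. Of the 39 members, 22 had a window in the RefSeq table.

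The response to glucose was asked next. edgeR's quasi-likelihood test set the high glucose samples against the normal glucose samples over 19015 genes, and a gene was called at a Benjamini-Hochberg adjusted p under 0.05. Of the 31 tested Hox genes, 6 fell (19.4%), where 14.5% of all tested genes fell, and 4 rose (12.9%), where 16.9% of all tested genes rose. Those shares are near the background, so the number of changed Hox genes is no result in itself. The groups were separate for 13 of the 31 (41.9%), against 46.4% of all tested genes. The genes that fell were Hoxa5, Hoxc5, Hoxc6, Hoxc8, Hoxc10 and Hoxc13, and those that rose were Hoxa3, Hoxa10, Hoxd8 and Hoxd9. In the GENCODE annotation of GRCm38, the called Hoxc genes lie on the plus strand, Hoxc13 at chr15:102921103-102928814, Hoxc10 at chr15:102966796-102971893, Hoxc8 at chr15:102990607-102994111, Hoxc6 at chr15:102998257-103011881 and Hoxc5 at chr15:102967443-103017429. On the same strand of another chromosome lie Hoxd9 at chr2:74697727-74700208 and Hoxd8 at chr2:74704615-74707933. The called Hoxa genes lie on the minus strand, Hoxa3 at chr6:52169062-52213336, Hoxa5 at chr6:52201754-52204587 and Hoxa10 at chr6:52231197-52240854. The median log2 fold change of the tested members was -0.06, against 0.01 for all tested genes. Scaling by library size alone, in place of TMM factors, moved the median of all genes by -0.12 and gave 10 lower and 3 higher Hox genes. Of all tested genes, 25.7% were then lower and 9.57% higher. Under that scaling the share of all calls that were lower went from 46.2% to 72.9%, and under upper quartile scaling to 56.5%. With upper quartile scaling 7 Hox genes were lower and 4 higher, against 17.9% and 13.8% of all tested genes.

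**Figure D2:**
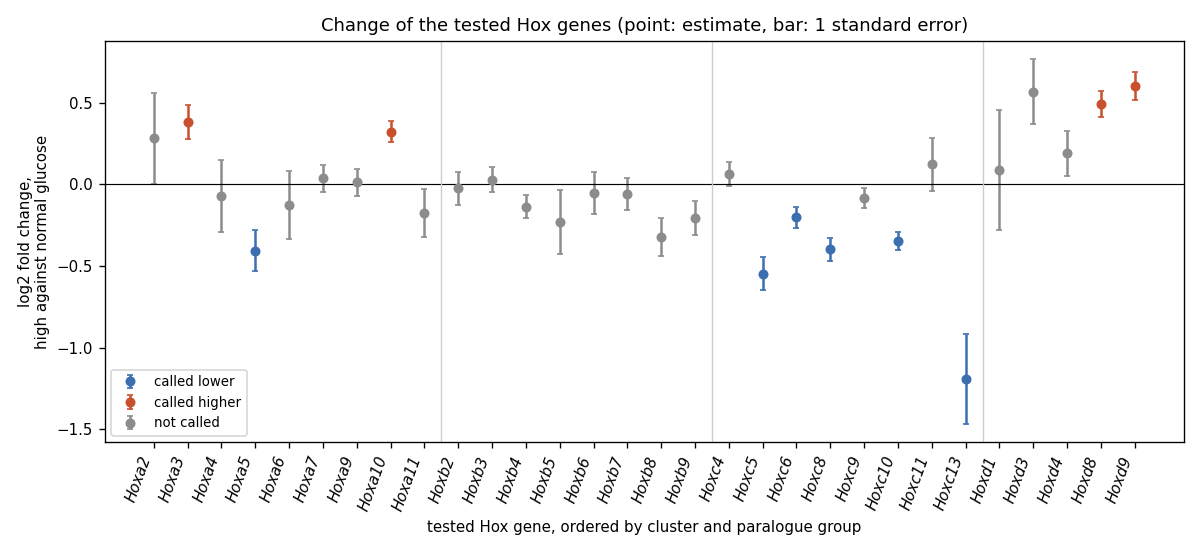
Log2 fold change of high against normal glucose for 30 of the 31 tested Hox genes, ordered by cluster and paralogue group (grey lines separate clusters). Points are estimates, bars are 1 standard error, and colours mark the genes called lower (blue, 6), called higher (red, 4) and not called (grey, 20). All 5 tested Hoxd genes lie above 0, of which Hoxd1 moved below 0 under library size scaling, and all 5 called Hoxc genes lie below it.

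By cluster, the called genes of Hoxc all fell and those of Hoxd all rose. The counts by cluster and by position stand against 14.5% of all tested genes that fell and 16.9% that rose, and were not tested. In Hoxc, 5 of 8 tested members fell and 0 rose, with a median log2 fold change of -0.27. In Hoxd, 2 of 5 rose and 0 fell, with a median of 0.49, and all 5 estimates were above 0, except that Hoxd1 was below 0 under library size scaling and in some fits that left out a sample. In Hoxa, 1 of 10 fell and 2 rose, with a median of -0.03, and in Hoxb 0 of 8 were called, with a median of -0.10. Along the clusters, genes called in both directions occurred among the central and the posterior groups. Paralogue groups 1 to 3 had 0 lower and 1 higher of 7 tested genes, groups 4 to 8 had 4 lower and 1 higher of 15, and groups 9 to 13 had 2 lower and 2 higher of 9.

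Hoxc8, a thoracic gene that also specifies motor neurons of the forelimb, counted 9076, 8863 and 7621 reads under normal and 6895, 5809 and 6615 under high glucose. It fell from 64.8 ± 6.79 to 49.2 ± 0.687 normalized CPM (SD, n = 3), for a log2 fold change of -0.40 (standard error 0.0718, edgeR adjusted p = 0.00198). The groups did not overlap. The gap between them was wider than the range of the high glucose values, but narrower than the range of the normal glucose values. Hoxc10, a lumbar and hindlimb gene, had 3810, 3970 and 3696 counts against 3293, 2659 and 3040. Its normalized CPM fell from 29.1 ± 1.24 to 22.9 ± 0.330 (SD, n = 3), for a log2 fold change of -0.35 (standard error 0.0533, edgeR adjusted p = 0.000712). It too was separate between the groups, and both calls held when any one sample was left out.

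Hoxc6, the most expressed member and a gene of the upper thorax, counted 8840, 8539 and 7903 reads under normal and 7949, 6476 and 7528 under high glucose. Its fall was small, from 64.2 ± 5.62 to 55.9 ± 0.170 normalized CPM (SD, n = 3), for a log2 fold change of -0.20 (standard error 0.0647, edgeR adjusted p = 0.0390). Normal glucose replicate 1, at 70.6 normalized CPM, stood above the other normal glucose samples at 60.2 and 61.7. The call was lost without any one of the high glucose samples, with adjusted p-values of 0.0845, 0.0826 and 0.0930 for leaving out replicates 1, 2 and 3. Without normal glucose replicate 1 the same gene kept its call.

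Hoxc5, which patterns the neck and upper thorax with its neighbours, counted 973, 1176 and 966 reads under normal and 845, 541 and 744 under high glucose. It fell from 7.87 ± 0.383 to 5.38 ± 0.664 normalized CPM (SD, n = 3), for a log2 fold change of -0.55 (standard error 0.101, edgeR adjusted p = 0.00221). The lowest normal glucose sample, at 7.54, was above the highest high glucose sample, at 5.96. The annotated exons of Hoxc5 and Hoxc10 share 166 bases on the same strand, so reads there cannot be assigned to either gene alone. With their counts summed, the pair fell by 0.39 on the log2 scale (edgeR adjusted p = 0.000293), in a test chosen after the data were seen. Both genes were already called lower and Hoxc10 had most of these counts, so the sum cannot tell what Hoxc5 did alone.

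Among the 10 called genes, Hoxc13 showed the largest fold change at the lowest level. It counted 40, 59 and 78 reads under normal and 28, 20 and 29 under high glucose, and fell from 0.448 ± 0.148 to 0.195 ± 0.0217 normalized CPM (SD, n = 3). The log2 fold change was -1.19 (standard error 0.276, edgeR adjusted p = 0.00804), with a 95% interval from -1.81 to -0.58. The normal glucose values were spread from 0.319 to 0.609 normalized CPM, all above the highest high glucose value of 0.215. The listed keratinocyte markers held no hair keratin. Of them, Cdh1, Dsg3, Epcam, Krt1 and Krt14 had too few counts to be tested, and of the 3 tested markers 1 rose and 0 fell. The one that rose was Krt5, a keratin of the basal layer, with 2 counts in each normal glucose sample and 23, 12 and 14 in high glucose (log2 fold change 2.95, edgeR adjusted p = 0.00148). Its partner Krt14 counted 2, 0 and 0 against 35, 9 and 31. Both had more counts in high glucose, where Hoxc13 had fewer, and the part of keratinocytes in the Hoxc13 difference was not tested. The other 3 tested Hoxc genes were Hoxc4, Hoxc9 and Hoxc11, with log2 fold changes of 0.06, -0.08 and 0.12, none past the threshold. Their 95% intervals ran from -0.09 to 0.22, from -0.22 to 0.06 and from -0.24 to 0.48. Library size scaling called Hoxc9 lower (log2 fold change -0.20, edgeR adjusted p = 0.031).

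**Figure D3:**
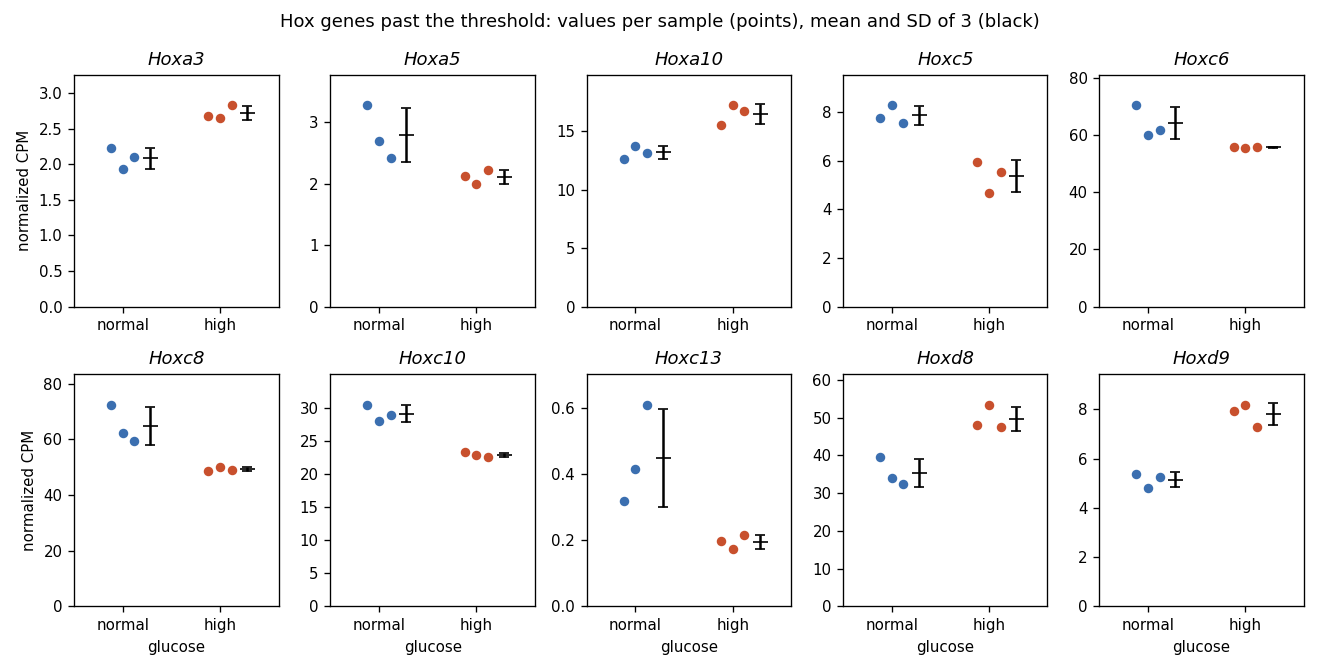
Normalized CPM per sample of the 10 Hox genes past the threshold, in normal (blue) and high (red) glucose, with the mean and SD of 3 samples in black and axes that start at 0. In each panel the groups do not overlap, and the high glucose samples of Hoxc6, Hoxc8 and Hoxc10 lie closer together than the normal glucose samples.

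Hoxd8 and Hoxd9 rose side by side. Hoxd8, a gene of the trunk and of lymphatic and blood vessel development, counted 4940, 4813 and 4156 reads under normal and 6804, 6208 and 6414 under high glucose. Normalized CPM went from 35.3 ± 3.69 to 49.6 ± 3.25 (SD, n = 3), a rise of 40.7% and a log2 fold change of 0.49 (standard error 0.0790, edgeR adjusted p = 0.000936). All high glucose values, from 47.6 upwards, were above the highest normal glucose value of 39.5. Hoxd9, which shapes the sacral region and the upper limb, counted 674, 681 and 671 reads under normal and 1125, 952 and 984 under high glucose. It rose from 5.14 ± 0.303 to 7.81 ± 0.456 normalized CPM (SD, n = 3), by 51.9%, or by 0.60 on the log2 scale (standard error 0.0854, edgeR adjusted p = 0.000418). The lowest high glucose value was 7.30 and the highest normal glucose value 5.38. Neither gene shares annotated exon bases with another gene, and both calls held when any one sample was left out.

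Hoxd3, a driver of endothelial migration in wounds, pointed the same way without passing the threshold. It counted 161, 202 and 172 reads under normal and 389, 205 and 202 under high glucose, and its log2 fold change was 0.57 (standard error 0.201, edgeR adjusted p = 0.0545). High glucose replicate 1 stood apart at 2.74 normalized CPM, against 1.76 and 1.50 in the other high glucose samples, and without it the log2 fold change was 0.25. DESeq2 and edgeR's likelihood ratio test called it higher (adjusted p = 0.0249 and 0.0397). Of its annotated exon bases, 53.1% are shared with Gm28230, a gene model that runs through Hoxd3 and Hoxd4, and 388 bases are shared with Hoxd4. Gm28230 counted 529, 715 and 543 reads under normal and 988, 597 and 894 under high glucose. By itself Gm28230 was called higher (log2 fold change 0.47, edgeR adjusted p = 0.0165). Summed, the 3 models had a log2 fold change of 0.37 (edgeR adjusted p = 0.0272), in a test chosen after the data were seen. That sum does not tell the models apart. Hoxd4, a cervical gene, and Hoxd1 had log2 fold changes of 0.19 and 0.09, with 95% intervals from -0.11 to 0.49 and from -0.73 to 0.90.

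In Hoxa, the changes went both ways. Hoxa10 counted 1584, 1946 and 1682 reads under normal and 2204, 2002 and 2248 under high glucose, and rose from 13.2 ± 0.535 to 16.5 ± 0.858 normalized CPM (SD, n = 3). Its log2 fold change was 0.32 (standard error 0.0653, edgeR adjusted p = 0.00384), its groups were separate, and its call held when any one sample was left out. Hoxa3, which patterns the pharyngeal arches and thymus and speeds wound repair, had 279, 274 and 269 counts against 380, 308 and 382. It rose from 2.09 ± 0.149 to 2.72 ± 0.0995 normalized CPM (SD, n = 3), for a log2 fold change of 0.38 (standard error 0.102, edgeR adjusted p = 0.0165). The call was lost in 4 of the 6 fits that left out a sample, those without normal glucose replicates 2 or 3 or high glucose replicates 1 or 3, and under library size scaling, with adjusted p-values up to 0.0866. Its exons overlap Gm28308 on the same strand and 5730596B20Rik, Gm29430, Hoxaas2 and Hoxaas3 on the opposite strand. Whether the counting used strand is not stated. No single one of these models had more than 67 counts in a sample. Hoxaas2 had 37, 64 and 48 counts under normal and 67, 60 and 55 under high glucose. Hoxaas3 had 40, 46 and 32 against 43, 26 and 45. The part of all these models together in the Hoxa3 difference was not tested.

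Hoxa5, which acts in the lung and restrains blood vessel growth, counted 411, 382 and 310 reads under normal and 301, 232 and 299 under high glucose. It fell from 2.80 ± 0.440 to 2.11 ± 0.112 normalized CPM (SD, n = 3), for a log2 fold change of -0.40 (standard error 0.127, edgeR adjusted p = 0.0340). The groups did not overlap, but normal glucose replicate 3 at 2.42 was close to the highest high glucose sample at 2.22. The call was lost without normal glucose replicate 1 and without each of the high glucose samples, with adjusted p-values from 0.0596 to 0.0961, and with no filter on low counts (0.0586). The other 7 tested Hoxa genes had log2 fold changes from -0.18 for Hoxa11 to 0.28 for Hoxa2, none past the threshold. Hoxa7 and Hoxa9 had log2 fold changes of 0.04 and 0.01, each below 0 under upper quartile and library size scaling and in at least 1 fit that left out a sample, with 95% intervals from -0.15 to 0.22 and from -0.17 to 0.20.

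No Hoxb gene passed the threshold: edgeR's quasi-likelihood test, its likelihood ratio test and DESeq2 each called 0 of 8, and 1, Hoxb8, had an unadjusted p under 0.05. Hoxb8, used in trunk neurons and myeloid cells, counted 247, 230 and 246 reads under normal and 213, 167 and 198 under high glucose, with a log2 fold change of -0.32 (95% interval from -0.59 to -0.06, edgeR adjusted p = 0.0630). Its groups did not overlap, and it was called lower under upper quartile or library size scaling, a stricter filter on low counts, halved counts and without normal glucose replicate 2 (edgeR adjusted p from 0.0158 to 0.0459). Hoxb4 and Hoxb9 had log2 fold changes of -0.14 and -0.21 (edgeR adjusted p = 0.175 and 0.157), and library size scaling called both lower (0.0187 and 0.0383). Without normal glucose replicate 2, Hoxb4 was called lower too (0.0316). Of the 8 tested Hoxb genes 7 had estimates below 0 and Hoxb3, at 0.03, was above it except under upper quartile or library size scaling and without normal glucose replicate 1, normal glucose replicate 3 or high glucose replicate 1. The intervals of all 8 reached from -0.67 at the lowest, for Hoxb5, to 0.24 at the highest, for Hoxb6. Exons of Hoxb3 share 52.9% of their bases with Hoxb3os on the opposite strand, which had 145 to 235 counts per sample.

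The make-up of the Hox RNA was then compared between the groups, cluster by cluster. Summed over its members, Hoxc had 85.7, 75.6 and 76.2 RPKM in normal glucose and 66.4, 65.4 and 65.8 RPKM in high glucose. Hoxd had 19.2, 16.6 and 16.01 RPKM against 23.8, 25.3 and 23.2 RPKM. In both clusters the groups were separate, in opposite directions. As a share of the summed Hox RPKM in a sample, which does not depend on the scaling between samples, Hoxc went from 63.7% ± 0.353 to 56.1% ± 0.546 (SD, n = 3) and Hoxd from 13.9% ± 0.490 to 20.5% ± 0.831 (SD, n = 3). Hoxa went from 10.0% ± 0.592 to 11.1% ± 0.361 (SD, n = 3), and Hoxb was 12.5% ± 0.323 and 12.3% ± 0.447 (SD, n = 3). Sums and shares depend on the exon lengths used, and shares are tied to each other. The most expressed members weigh most, as Hoxc6, Hoxc8 and Hoxc10 in Hoxc. Hoxd8 held 12.9 and 18.1 RPKM of mean Hoxd sums of 17.3 in normal and 24.1 in high glucose. In a two-sided exact permutation test p was 0.1 for the shares of Hoxa, Hoxc and Hoxd, the smallest value that 3 samples against 3 can give, and 0.8 for Hoxb. These tests cannot reach 0.05.

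Within paralogue groups 8 and 10, members of different clusters were set against each other inside each sample. Hoxd8 had 0.562, 0.560 and 0.563 times the RPKM of Hoxc8 in normal glucose and 1.02, 1.10 and 1.001 times in high glucose. Which of the pair was higher in high glucose depends on the length used, since with the longest transcript in place of the union of exons the ratios were 0.459, 0.458 and 0.460 in normal and 0.833, 0.902 and 0.818 in high glucose. The ratio was higher in every high glucose sample. A change of length multiplies all ratios of a pair by the same factor, so it cannot alter this direction. Hoxa10 had 0.243, 0.286 and 0.266 times the RPKM of Hoxc10 in normal glucose and 0.391, 0.440 and 0.432 times in high glucose. These 2 pairs were picked because one gene of each rose and the other fell, so the ratios are a description with no test.

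**Figure D4:**
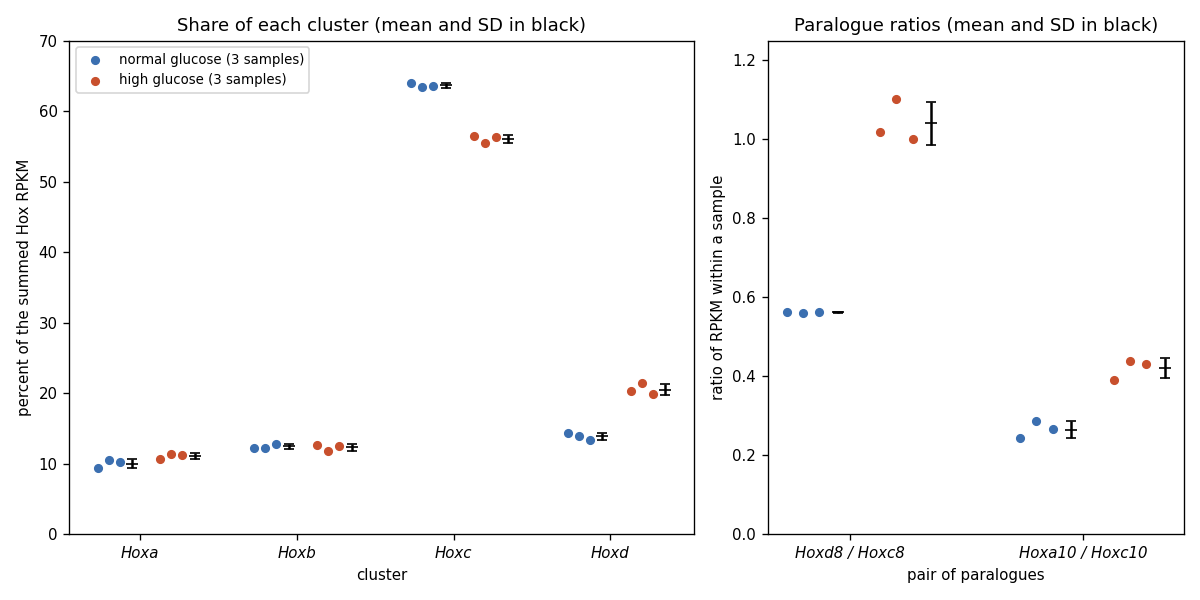
Left, the share of each cluster in the summed Hox RPKM of a sample, in percent. Right, the RPKM of Hoxd8 divided by that of Hoxc8, and of Hoxa10 divided by that of Hoxc10, in the same sample. Blue points are normal and red points high glucose samples, with the mean and SD of 3 in black. Hoxc loses share from 63.7% to 56.1%, Hoxd gains from 13.9% to 20.5%, and Hoxb is at 12.5% and 12.3%.

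The clusters also carry microRNA genes that pair with Hox transcripts. The mature miR-196 and miR-10 sequences are shown since their target sites lie in Hox 3′ ends, with the seed, bases 2 to 8, in capitals (RefSeq, GRCm38.p6, 5′ to 3′).
miR-196a-5p: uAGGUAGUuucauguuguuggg
miR-196b-5p: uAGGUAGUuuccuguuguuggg
miR-10a-5p: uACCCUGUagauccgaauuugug
miR-10b-5p: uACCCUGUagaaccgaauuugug
Mature miR-196a is encoded on the plus strand by Mir196a-1 in the Hoxb cluster (chr11:96265187-96265208) and Mir196a-2 in the Hoxc cluster (chr15:102973365-102973386), and miR-196b on the minus strand by Mir196b in the Hoxa cluster (chr6:52230129-52230150). Mir10a lies in the Hoxb cluster (chr11:96317186-96317208) and Mir10b in the Hoxd cluster (chr2:74726074-74726096), both on the plus strand. Mature microRNAs were not measured, since these are counts of polyadenylated RNA. Counts on the hairpin genes were 11 to 22 per sample for Mir196a-1 and at most 3 for Mir196a-2, Mir196b, Mir10a and Mir10b.

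The miR-196 seed match ACTACCT stands in the 3′ end after the stop codon of 9 of the 39 Hox genes, among them Hoxa5, Hoxa7, Hoxb7 and Hoxc8, against 7.72% of 21166 genes. Of these, 8 were tested, 2 fell (Hoxa5 and Hoxc8) and 0 rose, where 14.5% of all tested genes fell and 16.9% rose. The miR-10 seed match ACAGGGT stands in 4, among them Hoxa3 and Hoxb3, against 14.1% of genes, and of these 1 rose (Hoxa3) and 0 fell, so that neither count is read as a result about the sites. Over their whole length, the best pairing with miR-196a without gaps was found in Hoxb8 at chr11:96284888-96284909 and the next in Hoxd8 at chr2:74707120-74707141, both on the plus strand of GRCm38. Capitals mark bases that form Watson-Crick pairs.
Hoxb8 site: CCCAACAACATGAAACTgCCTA
Hoxd8 site: CtCAACAACATaAActTcCtaA
The Hoxb8 site pairs at 21 of 22 bases, with 1 G:U pair, and is the classic miR-196 target that is cleaved rather than held back. The Hoxd8 site pairs at 15 of 22 bases, with 3 G:U pairs. Hoxb8, at 0.628 RPKM, was below its neighbours Hoxb7 and Hoxb9, but Hoxb5, with 13 paired bases at best, averaged 0.269 RPKM. Hoxd8 averaged 15.5 RPKM, and Hoxc8, which holds the seed match, 20.1 RPKM. Any link of pairing to level was not tested. A match describes these letters and no more.

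HOX proteins bind DNA together with PBX, MEIS and PREP proteins, the TALE cofactors. All 10 listed genes were tested, among them Pbxip1, which is not itself a PBX, MEIS or PREP gene. Counts for this list and for the lists and markers that follow stand against 14.5% of all tested genes that fell and 16.9% that rose, with no test of a list. Of the 10 listed genes 3 rose and 0 fell, with a median log2 fold change of 0.13. Those that rose were Meis2 and Pknox1 at 0.21 each and Meis1 at 0.20 (edgeR adjusted p = 0.0160, 0.0166 and 0.0171). The increases of the cofactors were smaller than those of Hoxd8 and Hoxd9.

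Retinoic acid, made by ALDH1A enzymes and removed by CYP26 enzymes, and the CDX factors switch on Hox genes in the embryo. Of 21 listed genes of these inputs 16 were tested, 4 fell and 6 rose, with a median log2 fold change of 0.15. Crabp1, a carrier of retinoic acid inside the cell, counted 329364, 293894 and 312757 reads under normal and 119744, 98029 and 108736 under high glucose, a log2 fold change of -1.52 (edgeR adjusted p = 5.03e-07). Aldh1a2, which makes retinoic acid, moved the other way, from 1846, 2304 and 2015 counts to 5454, 4629 and 5525, a log2 fold change of 1.35 (edgeR adjusted p = 1.21e-07). Crabp2, a carrier that passes retinoic acid to its receptor, rose by 0.85 and Aldh1a1 fell by 0.35 on the log2 scale (edgeR adjusted p = 3.80e-05 and 0.000497). Cdx2 had 0 counts in every sample, and Cdx1 and Cdx4 had too few to be tested.

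Polycomb and Trithorax complexes keep Hox genes silent or active through cell division. Of 22 Polycomb genes 2 fell and 6 rose, with a median log2 fold change of 0.09. Phf19, which guides Polycomb to chromatin, fell by 0.84, and Cbx7, Cbx2 and Phc3, parts of the complex that reads its mark, had log2 fold changes of 0.48, 0.40 and 0.40 (edgeR adjusted p = 7.18e-05, 0.00730, 0.00466 and 0.0169). The catalytic genes Ezh2 and Ezh1 had log2 fold changes of -0.06 (not past the threshold, edgeR adjusted p = 0.557) and 0.30 (0.00268). Of 16 Trithorax and demethylase genes 9 rose and 0 fell, with a median of 0.26. Kmt2c, Kmt2a, Ash1l and Kat6a, which encode enzymes that modify histones at active genes, had log2 fold changes of 0.75, 0.63, 0.51 and 0.51 (edgeR adjusted p = 3.87e-05, 0.000642, 0.00114 and 0.00518).

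Other genes of positional identity were also present. Of 30 listed homeobox and T-box genes 21 were tested, 2 fell and 7 rose, with a median log2 fold change of 0.17. Meox1, a gene of the somites, fell by 0.89, and Msx1 and Tbx5, genes of the limb and forelimb, had log2 fold changes of 0.65 and 0.52 (edgeR adjusted p = 7.14e-05, 0.00258 and 0.0433). Pitx1, which marks the hindlimb, had at most 4 counts in a sample, and Dlx5, Evx1 and Evx2 had 0, the latter 2 being direct neighbours of the Hoxa and Hoxd 5′ ends. Of 16 noncoding genes of the Hox clusters 9 were tested and 0 were called by edgeR's quasi-likelihood test, its likelihood ratio test or DESeq2, with 0 at an unadjusted p under 0.05. The ones with the highest level, Hoxd3os1 and Hotairm1, had log2 fold changes of 0.04 and -0.09 (edgeR adjusted p = 0.758 and 0.637). Hottip, beside Hoxa13, had 0 counts, and Hotair, in the Hoxc cluster, had at most 4. Of 19 genes that flank the clusters 17 were tested, 1 fell and 3 rose. Calcoco1 and Cbx5, near Hoxc, went in opposite directions (log2 fold changes of 0.32 and -0.20), and Nfe2l1, near Hoxb, had 0.21 (edgeR adjusted p = 0.00108, 0.0448 and 0.00584).

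Marker genes of cell types moved with the glucose groups as well. Of 14 tested endothelial markers 3 fell and 3 rose, with a median log2 fold change of -0.12. Cdh5, the junction cadherin of endothelial cells, and Flt1 fell by 1.03 and 0.53, Tek and Plvap had log2 fold changes of 0.66 and 0.44, and Kdr had 0.15 without passing the threshold (edgeR adjusted p = 0.000139, 2.96e-05, 0.00219, 0.00502 and 0.252). Of 16 fibroblast markers 11 rose and 3 fell, with a median of 0.47. Col3a1, Fap, Postn, Dpt, Col1a1 and Pdgfra had log2 fold changes of 1.39, 0.93, 0.80, 0.77, 0.76 and 0.46, each past the threshold. The 3 that fell were Twist2, Vim and Thy1, by 0.70, 0.50 and 0.40 (edgeR adjusted p = 0.000394, 5.03e-05 and 0.000178). Of 9 tested mural and smooth muscle markers 6 fell and 1 rose, of 5 macrophage markers 2 fell and 1 rose, and of 5 adipocyte markers 3 rose and 0 fell. Fibroblasts and mural cells also express Hox genes, and the part of these shifts in the Hox differences was not tested.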

How the data were processed

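Per the labels, polyadenylated RNA from 6 samples of mouse skin endothelial cells, 3 in normal and 3 in high glucose, was sequenced. The authors trimmed reads with Trimmomatic, aligned them to GRCm38 (mm10) with HISAT2 and deposited a read count per gene from StringTie, without normalization. The submitters' processing notes also name edgeR. Versions, annotation release and strand use are not given in the sources used here. The labels name TRIzol and the DNBSeq platform, and the paper's methods another kit and sequencer. Of the 18 Hox counts from 1 to 14, 15 were even, but over all genes 10842 counts were 1 and 9280 were 2, and whether both reads of a pair were counted is not stated.

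Of 55487 identifiers, 55141 had a symbol. The identifiers without one held 0.0340% of counts. The analysis used edgeR 4.0.16 under R 4.3.3, with filterByExpr at its minimum count of 10 and minimum total of 15, TMM factors, the quasi-likelihood test on all genes and Benjamini-Hochberg adjustment. RPKM used the union of exons in GENCODE M21 (GRCm38). 95% intervals came from the standard error and the test's degrees of freedom. Alternatives were other tests (DESeq2 1.42.0 among them), normalizations, filters and thresholds, the replicate block, halved counts and each sample left out. Summing overlapping Hox models and ratios per longest transcript were added after seeing the data.

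Values per sample are given for called members and the 3 most expressed of each cluster, and per list at most 4 called genes, averaging at least 1 CPM, are named, beside fixed cell type markers. Eng, Ezh1, Ezh2, Krt5, Thy1, Twist2, Vim, untested genes and genes at 0 were named after their values were seen. Members and lists were chosen with earlier results of these data known. Values of 1 member and 1 listed gene are not reported here.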

Additional observations from a re-analysis of the deposited data

How the results depend on the processing

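The direction of the 10 called Hox genes held in each alternative in which the gene was tested, and 12 of the 31 tested genes kept both direction and call wherever they were tested. Hoxc13 was not tested with a filter of 1 CPM in 3 samples, where Hoxb8 was called lower (edgeR adjusted p = 0.0443). Lower Hox genes numbered 10 when scaled by library size alone, where 25.7% of all tested genes were lower. At an absolute log2 fold change of at least 0.5 there were 2 lower and 1 higher, against 7.22% and 5.92% of all tested genes. Leaving out 1 sample at a time gave 4 to 8 lower and 3 to 4 higher Hox genes. In those fits 10.6% to 15.9% of all tested genes were lower and 10.2% to 16.4% higher. Hoxa3, Hoxa5 and Hoxc6 lost their calls in some of these fits, while Hoxa10, Hoxc5, Hoxc8, Hoxc10, Hoxc13, Hoxd8 and Hoxd9 kept theirs in 6 of 6 such fits. Reversals touched 10 genes that were not called. Under upper quartile scaling the log2 fold changes of Hoxa7, Hoxa9 and Hoxb3 were -0.0063, -0.031 and -0.015. Scaled by library size alone, Hoxa7, Hoxa9, Hoxb3, Hoxc4 and Hoxd1 had -0.078, -0.10, -0.087, -0.051 and -0.027. Hoxa9 was at -0.0080 with no filter on low counts, -0.0049 with a filter of 1 CPM in 3 samples and -0.0075 with halved counts. Across the fits that left out a sample, the log2 fold changes ranged from -0.016 to 0.49 for Hoxa2, -0.26 to 0.094 for Hoxa4, -0.018 to 0.061 for Hoxa7, -0.040 to 0.067 for Hoxa9, -0.087 to 0.040 for Hoxb2, -0.029 to 0.060 for Hoxb3, -0.17 to 0.020 for Hoxb6, -0.0086 to 0.25 for Hoxc11 and -0.12 to 0.47 for Hoxd1. The cause was not tested.

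With the replicate number as a block, 4 Hox genes were lower and 4 higher, against 12.7% and 15.3% of all tested genes. Hoxa5 and Hoxc6 were then at adjusted p-values of 0.0516 and 0.0501 in edgeR's quasi-likelihood test. Samples of one number deviated from their group means with correlations of -0.0650, 0.0405 and 0.0449 across genes, so the numbers were not taken to pair samples. Samples of one group differed by more than sampling noise, with chi-square values per degree of freedom from 9.76 to 59.9. The depth limits Hoxd10 and the other members with at most 14 counts in a sample, for which a difference was not detectable.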
